A study of Tremella fuciformis and Annulohypoxylon stygium and Tremella fuciformis
Annulohypoxylon stygium with 5 samples.

Results

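Aminoacyl-tRNA synthetases and the factors that start, extend and end translation were described in mycelia of the jelly fungus Tremella fuciformis and of the ascomycete Annulohypoxylon stygium. Members were the assembled transcript sequences (unigenes) whose SwissProt hit had an e-value of at most 1e-20 and a description naming a tRNA ligase or synthetase, a translation initiation factor, elongation factor 1, 2 or 3, or a peptide chain release factor. This rule took 224 of 42507 unigenes. T. fuciformis held 98 of them, of its 15354 unigenes, and A. stygium held 104, of its 18667. A further 12 members were found in the libraries of both fungi, of 810 such unigenes, and 10 stayed below 1 FPKM in all 4 single-fungus libraries.

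RNA came from 5 groups of wild type mycelia, with 1 library each. T. fuciformis and A. stygium were each sampled 1 week after an interaction with the other fungus, below called mycelia after contact. Dual mycelia, a mixed sample holding both species, were taken 1 week after interaction. The remaining groups were T. fuciformis alone, 2 weeks old, and A. stygium alone, 1 week old. No source used here states the total age of the interacting mycelia, and the effects of age and of interaction cannot be told apart. Whether a library pooled several cultures is likewise not stated.

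Each amino acid is joined to its tRNA by a synthetase of its own, and mitochondria translate their few genes with a separate set of tRNAs and factors. In the cytosol the initiation factors bring the small ribosomal subunit, the initiator tRNA and the mRNA together, the elongation factors deliver the charged tRNAs and move the ribosome along, and the release factors free the finished chain. Fungi differ from animals in needing elongation factor 3, an ATPase that acts on the ribosome. The roles given below are those known from Saccharomyces cerevisiae and other eukaryotes, and the names are those of the nearest SwissProt hit.

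Levels are FPKM, fragments per kilobase of unigene scaled to library size, after rescaling so that all unigenes of 1 fungus summed to 1e+06 in each library. The summed FPKM of the libraries as deposited was between 524250 and 657997. Rescaling mattered most in the dual library, where T. fuciformis unigenes made up 36.4% of the summed FPKM and those of A. stygium 59.0%. In the single-fungus libraries the unigenes of the named fungus made up 98.9% to 99.2%. The log2 ratio is log2((interacting + 1)/(alone + 1)) of rescaled FPKM, and a unigene was called 2-fold higher or lower at a log2 ratio of at least 1 or at most -1. With 1 library a group there is no replicate spread, no p-value and no error for any value here, and the calls describe these libraries. RNA per cell and the number of cells cannot be told apart in such samples. Both comparisons of a fungus share its library grown alone, so they are not independent of each other.

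Both sets were complete by name for cytosolic synthetases and for the subunits of eIF2, eIF2B and eIF3, but not for mitochondrial synthetases. All 20 amino acids had a cytosolic or sole synthetase in each fungus. Synthetases named mitochondrial beside a cytosolic one covered 9 amino acids in T. fuciformis and 11 in A. stygium. For glycine, histidine and valine the only synthetases found were named mitochondrial, which in yeast is the case for genes that serve both compartments. All 13 subunits of eIF3 from a to m, the 5 subunits of eIF2B and the 3 of eIF2 were found in both fungi. Of the members, 93 of 98 in T. fuciformis and 96 of 104 in A. stygium carried the KOG category for translation.

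The fungal assignment, which used FPKM alone, was set beside the genus of each nearest Nr hit. Among T. fuciformis members 97 of 98 had their hit in a genus of Tremellomycetes, against 85.8% of all its unigenes with a named genus. Among A. stygium members 80 of 104 had theirs in a genus of Xylariales, against 71.1% of all. In the libraries of the other fungus the members were near 0, with a median of the highest value of 0.05 FPKM in both and a maximum of 5.08 FPKM for T. fuciformis members and 2.11 FPKM for A. stygium members.

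The rule also took a few rows of other function. They were Hbs1, a GTPase that rescues stalled ribosomes, and Rli1, an ATPase that recycles them, in both fungi, a tRNA ligase that joins spliced tRNA pieces in T. fuciformis, and a kinase of the eIF2 alpha subunit in A. stygium. CL3301.Contig1 of T. fuciformis had an elongation factor 1-alpha hit but lay in the assembly cluster of Hbs1, at 4.36, 2.44 and 6.12 FPKM after contact, in dual mycelia and alone. The weakest hits inside the e-value limit were the eIF2B gamma contigs of A. stygium at 2.3e-22 and 3.5e-22. Just outside it lay a shared eIF1 unigene at 1.6e-20. Next came A. stygium unigenes of elongation factor 1-gamma at 4.5e-19 and of valyl-tRNA synthetase (CL1636.Contig1) at 4.9e-19. An eIF4E contig pair of T. fuciformis followed at 8.1e-19 and 1.1e-18. CL1636.Contig1 had 4.15, 5.38 and 3.29 FPKM after contact, in dual mycelia and alone, and is not in the valyl sum of A. stygium. The shared unigene had 1.96 and 1.99 FPKM in T. fuciformis after contact and alone and 1.85 in both A. stygium libraries, and no member unigene was named eIF1 in T. fuciformis. The eIF4E pair is not in the T. fuciformis values of eIF4E, and its level is given with them below. Contigs of 1 cluster can share reads, and 41 of the 98 T. fuciformis members and 38 of the 104 A. stygium members lay in clusters with several members. Members with the same protein name in a fungus were therefore also summed, which gave 71 proteins in T. fuciformis and 73 in A. stygium.

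In T. fuciformis after contact most members stood slightly below their level alone, and none passed 2-fold. All 98 members passed the filter of 1 FPKM, and 0 were 2-fold higher, where 10.4% of all T. fuciformis unigenes were, and 0 were 2-fold lower, where 5.26% were. At 10 FPKM or more in 1 of the 2 libraries, 0 of 85 members were called in either direction, against 3.41% of all unigenes higher and 1.63% lower. The median log2 ratio of the members was -0.13, with 22 above 0 and 76 below, beside a median of -0.01 over all unigenes. At 10 FPKM or more the members had a median of -0.13, with 17 above 0 and 68 below. All unigenes at that filter had -0.06, with 3519 above 0 and 5003 below. Together the members made up 1.51% of the fungus's rescaled FPKM after contact and 1.70% alone.

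In the T. fuciformis part of the dual mycelia the members stood lower still, and few passed 2-fold. Of 98 members 0 were 2-fold higher, where 12.6% of all unigenes were, and 4 were 2-fold lower, where 13.2% were. At 10 FPKM or more, 0 of 84 were higher and 2 were lower, against 6.75% and 7.57% of all unigenes. The median log2 ratio of the members was -0.36, with 11 above 0 and 87 below, beside -0.17 over all unigenes. At 10 FPKM or more the members had a median of -0.37, with 8 above 0 and 76 below. All unigenes at that filter had -0.24, with 2654 above 0 and 5528 below. The members' share of the fungus's rescaled FPKM was 1.28% in dual mycelia and 1.70% alone.

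In A. stygium after contact most members stood slightly above their level alone. All 104 passed the filter, and 4 were 2-fold higher, where 9.89% of all A. stygium unigenes were, and 3 were 2-fold lower, where 11.3% were. At 10 FPKM or more 0 of 89 were called in either direction, against 4.26% higher and 3.26% lower of all unigenes. The median log2 ratio was 0.08, with 67 members above 0 and 37 below, beside -0.13 over all unigenes. At 10 FPKM or more the members had a median of 0.08, with 59 above 0 and 30 below. All unigenes at that filter had -0.12, with 2924 above 0 and 4987 below. The members held 2.73% of the fungus's rescaled FPKM after contact and 2.60% alone.

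In the A. stygium part of the dual mycelia the median of the members lay near that of all unigenes, and few members passed 2-fold. Of the 103 that passed the filter 3 were 2-fold higher, where 11.9% of all unigenes were, and 6 were 2-fold lower, where 14.8% were. At 10 FPKM or more 0 of 88 were higher and 1 was lower, against 9.13% and 6.51% of all unigenes. The median log2 ratio was -0.12, with 40 above 0 and 63 below, beside -0.10 over all unigenes. At 10 FPKM or more the members had a median of -0.14, with 31 above 0 and 57 below. All unigenes at that filter had -0.11, with 3197 above 0 and 4612 below. The members' share was 2.33% in dual mycelia and 2.60% alone. These 2 comparisons with dual mycelia depend on rescaling: without it the median over members was -1.79 in T. fuciformis and -0.66 in A. stygium, and the median over all unigenes -1.42 and -0.55.

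**Figure D1:**
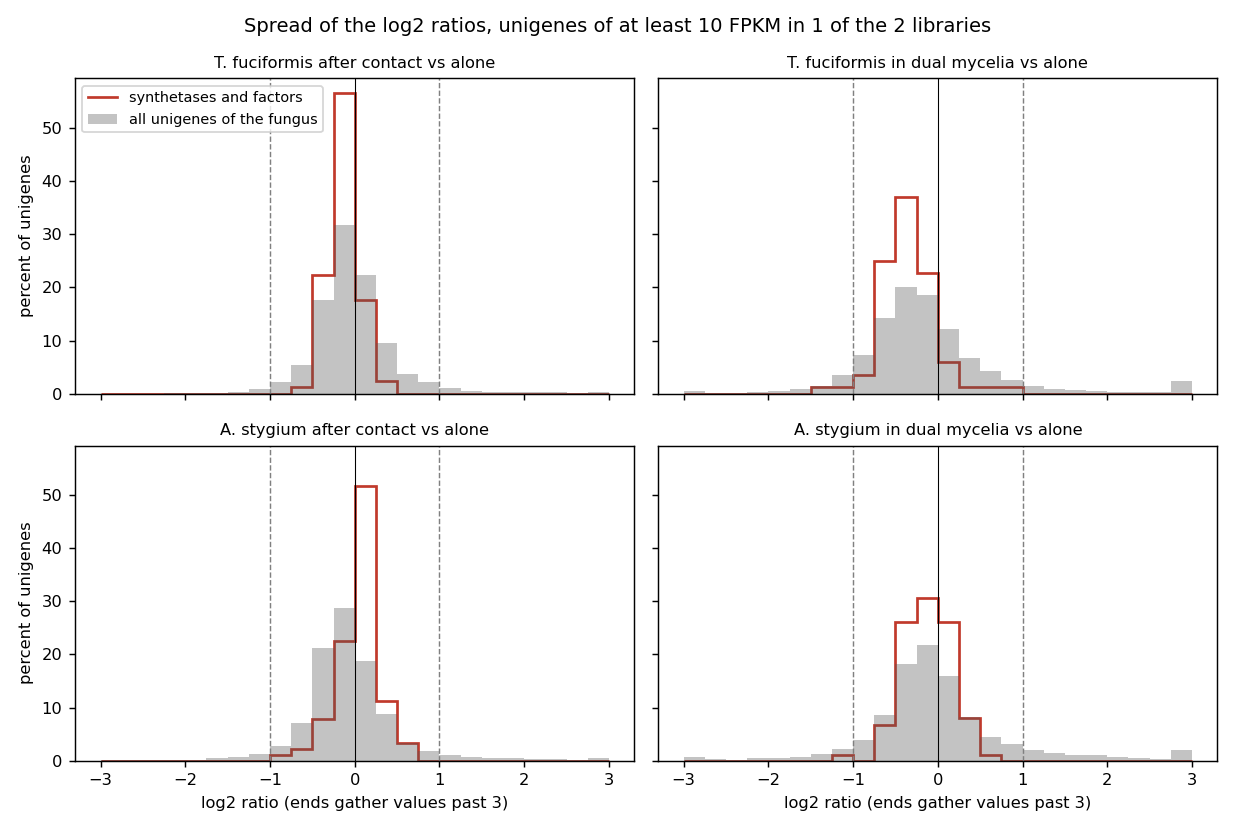
Log2 ratios to the mycelia alone in the 4 comparisons (x axis, bins of 0.25) against the percent of unigenes (y axis), for synthetases and translation factors (red line) and for all unigenes of the fungus (grey), at 10 FPKM or more in 1 of the 2 libraries. The dashed lines mark 2-fold. The members peak left of 0 in both T. fuciformis panels, in the same bins as all unigenes. In A. stygium after contact they peak right of 0, where all unigenes peak left of it. The members lie almost wholly within 2-fold.

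The ratios of the members also spread less than those of all unigenes at the same filter of 10 FPKM. The interquartile range of the log2 ratio in T. fuciformis was 0.21 for members and 0.43 for all unigenes after contact, and 0.34 and 0.70 in dual mycelia. In A. stygium it was 0.20 and 0.48 after contact, and 0.42 and 0.66 in dual mycelia. The members were not matched to the other unigenes on level, and no test was made of these spreads.

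Nearly all calls among the members came from single contigs of a cluster whose sum stayed within 2-fold. In T. fuciformis in dual mycelia the 4 were contigs of Hbs1 (CL3301.Contig2), of the mitochondrial synthetases for isoleucine (CL4144.Contig4) and serine (CL1164.Contig1), and of mitochondrial IF-2 (CL4168.Contig2). CL3301.Contig2 had 2 FPKM in dual mycelia and 16.7 alone, a log2 ratio of -1.42 after rescaling, while its cluster had a ratio of -0.22. CL4144.Contig4 had 2.83 FPKM in dual mycelia and 17.4 alone, a log2 ratio of -1.02, with -0.49 for its cluster. Summed over clusters, no member of T. fuciformis passed 2-fold in either comparison.

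The same held in A. stygium for the 7 calls after contact, all below 10 FPKM in both libraries, and for 8 of the 9 calls in dual mycelia. The glutaminyl-tRNA synthetase cluster CL1044, with 7 member contigs in this fungus, gave 4 of the 7 and 4 of the 9. Its sum was 60.4 after contact, 60.8 in dual mycelia and 63.8 alone in rescaled FPKM. CL5163.Contig2, of the eIF2B gamma subunit, had 8.09 FPKM after contact and 7.11 in dual mycelia and was listed at 0 alone, while its cluster sum had log2 ratios of 0.11 and 0.00. The exception was Unigene8146, with 11.97 FPKM after contact, 6.18 in dual mycelia and 19.75 alone, log2 ratios of -0.75 and -1.08. It is a second unigene named as the alpha subunit of phenylalanyl-tRNA synthetase, and the main one, Unigene11026, had 124, 74.6 and 96.7 FPKM in the same order, with ratios of 0.30 and 0.18. With contigs summed by protein, none of the 71 proteins of T. fuciformis and none of the 73 of A. stygium passed 2-fold in any of the 4 comparisons.

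Elongation factor 1-alpha had the highest level of the set in both fungi, while the other elongation factors overlapped the initiation factors in level. Elongation factor 1-alpha, the GTPase that delivers charged tRNA to the ribosome, ranked 4th after contact, 3rd in dual mycelia and 5th alone among the 18667 unigenes of A. stygium. In T. fuciformis its contig CL4361.Contig3 ranked 40th, 56th and 26th of 15354. Summed over its unigenes it had 3103, 2412 and 3802 rescaled FPKM in T. fuciformis after contact, in dual mycelia and alone, log2 ratios of -0.29 and -0.66 to the mycelia alone. In A. stygium it had 7947, 6060.5 and 7370.3, log2 ratios of 0.11 and -0.28. So its level alone was the highest of the 3 libraries in T. fuciformis, and its level after contact was the highest in A. stygium.

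The other elongation factors kept that order of libraries in both fungi. Elongation factor 1-beta, the nucleotide exchange factor of 1-alpha, had 728, 514 and 923 rescaled FPKM in T. fuciformis after contact, in dual mycelia and alone, ratios of -0.34 and -0.84. Its A. stygium counterpart had 1357, 1009 and 1216.5, ratios of 0.16 and -0.27. Elongation factor 1-gamma, a subunit of the same exchange complex, had 281, 237 and 333 in T. fuciformis, and 1350.1, 1031 and 1222 in A. stygium. These 2 subunits stood lowest in the T. fuciformis part of the dual mycelia and highest in A. stygium after contact.

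Elongation factor 2, which moves the ribosome by 1 codon, differed little in T. fuciformis, with 859, 755 and 901 rescaled FPKM after contact, in dual mycelia and alone. In A. stygium it had 1222, 1036 and 1129. Elongation factor 3 had 462, 434 and 484 in T. fuciformis, ratios of -0.07 and -0.16. In A. stygium it had 538, 325 and 508, ratios of 0.08 and -0.64, the lowest of all A. stygium proteins in dual mycelia. Summed, the elongation factors had 5432, 4351 and 6442 rescaled FPKM in T. fuciformis, with 5 of 5 proteins below 0 in both comparisons. In A. stygium they had 12414, 9461 and 11446, with 5 of 5 above 0 after contact and 5 of 5 below 0 in dual mycelia. A further scaling set the median ratio to 0 over unigenes of the fungus with at least 10 FPKM in both libraries. With it 2 of the 5 in T. fuciformis after contact, factors 2 and 3, stood at 0.00. The other counts stayed as they were.

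**Figure D2:**
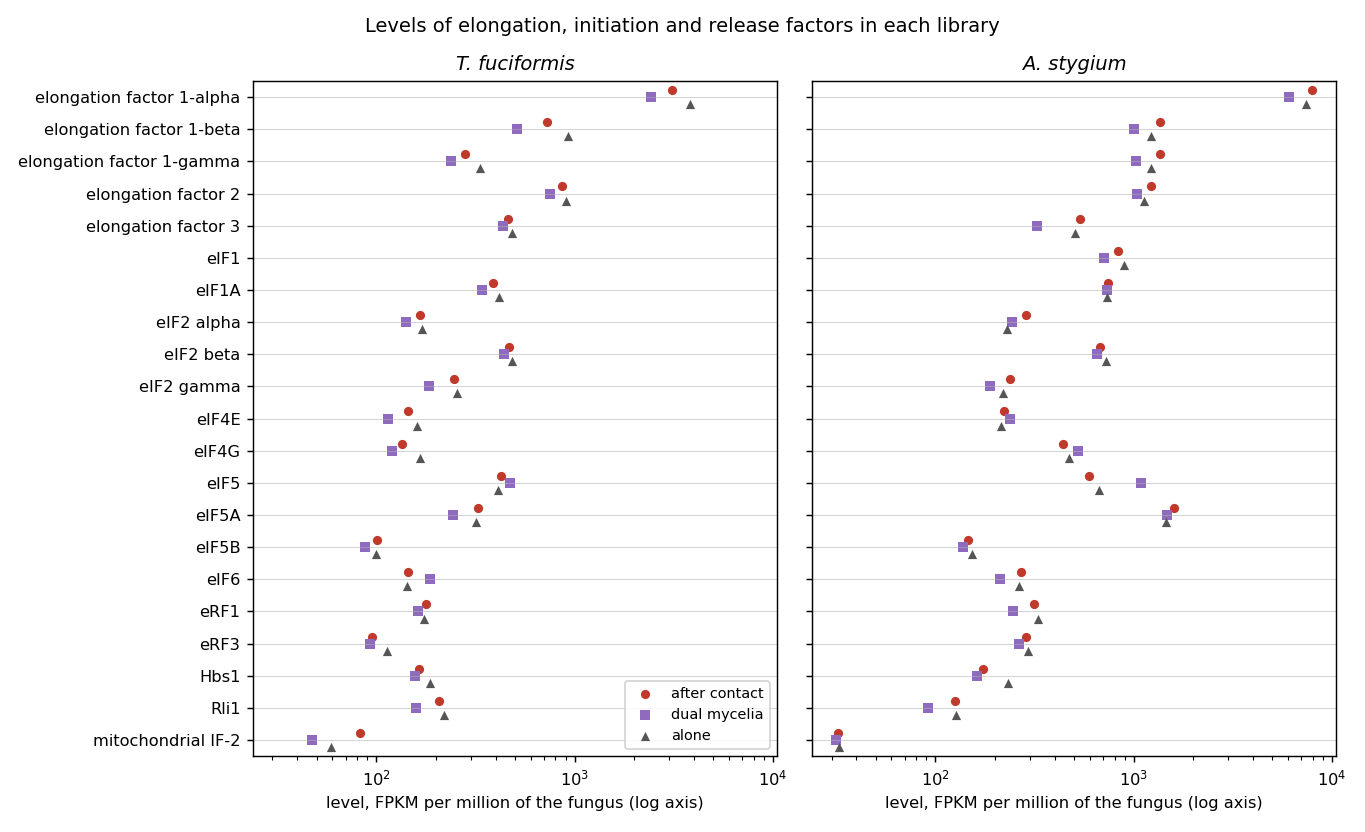
Levels of elongation, initiation and release factors (x axis, rescaled FPKM on a log scale) in T. fuciformis (left) and A. stygium (right), with 1 point for each library: after contact (red circles), dual mycelia (purple squares) and alone (grey triangles), contigs summed by protein. Elongation factor 1-alpha is the highest in both fungi, and eIF5 of A. stygium stands apart in dual mycelia, at 1086 against 666 alone.

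Among the initiation factors the clearest departure was eIF5, which triggers GTP hydrolysis by eIF2 when the start codon is found. In A. stygium Unigene5433 had 320 FPKM after contact, 384 in dual mycelia and 346 alone as deposited, which gave 593, 1086 and 666 rescaled FPKM. Its log2 ratios were -0.17 after contact and 0.70 in dual mycelia, the lowest and the highest of the 25 cytosolic initiation factors of A. stygium. In T. fuciformis the eIF5 contigs summed to 427, 473 and 409 rescaled FPKM, ratios of 0.06 and 0.21. Of the 68 proteins named in both fungi, eIF5 was the only one above its level alone in both fungi in dual mycelia, by rescaled values. Without rescaling the ratio in dual mycelia was 0.15 in A. stygium and -1.32 in T. fuciformis.

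The ternary complex factor eIF2, which carries the initiator tRNA, stayed within 2-fold in all subunits. In T. fuciformis its alpha subunit had 165, 141 and 171 rescaled FPKM after contact, in dual mycelia and alone, the beta subunit 465, 439 and 486, and the gamma subunit 247, 184 and 254, a ratio of -0.46 in dual mycelia. In A. stygium the alpha subunit had 286, 244 and 231, the highest ratio of its initiation factors after contact at 0.31. The beta subunit of A. stygium, spread over 6 contigs of 1 cluster, had 679, 653 and 725, and the gamma subunit 238, 189 and 219.8. Alpha, the subunit that is phosphorylated when amino acids run short, thus stood highest after contact in A. stygium and highest alone in T. fuciformis.

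The exchange factor eIF2B, which reloads eIF2 with GTP, had 5 of 5 subunits above 0 in A. stygium after contact, with ratios of 0.07 to 0.23. In dual mycelia 3 of its 5 lay between 0.00 and 0.02, while epsilon, the catalytic subunit, had 74.6 rescaled FPKM against 105 alone, a ratio of -0.49, and alpha had 48.6 against 62.6, a ratio of -0.36. In T. fuciformis after contact 2 of the 5 were above 0 and 3 below, between -0.13 and 0.04. In dual mycelia 5 of 5 were below 0, from -0.51 for alpha to -0.20 for beta.

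The eIF3 complex, the scaffold that binds the small subunit, had 13 subunits measured in both fungi. In T. fuciformis after contact 1 of 13 was above 0 and 12 below, with a median log2 ratio of -0.16. In dual mycelia 0 were above 0 and 13 below, with a median of -0.28, from -0.61 for eIF3l to -0.13 for eIF3b. In A. stygium after contact 12 were above 0 and 1 below, with a median of 0.13, and in dual mycelia 2 were above 0 and 11 below, with a median of -0.19. The A. stygium exceptions in dual mycelia were eIF3j, a loosely bound subunit, at 178 rescaled FPKM against 143 alone, and eIF3d at 222 against 209. Among members the most abundant subunit alone was eIF3i in T. fuciformis, at 287, and eIF3g in A. stygium, at 514. Further eIF3a unigenes lay outside the e-value limit in both fungi. Among them were CL5752.Contig1 and CL8140.Contig1 of T. fuciformis, at 78.7 and 78.1 alone, and Unigene2299 of A. stygium, at 93.8. They were not added to eIF3a, at 165 alone in T. fuciformis and 163 in A. stygium, so this ranking holds for members only.

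Levels of the factors that bind the cap end of the mRNA depended on which unigenes the e-value limit kept. The scaffold eIF4G had 134, 120.2 and 167 rescaled FPKM in T. fuciformis after contact, in dual mycelia and alone, ratios of -0.31 and -0.47. In A. stygium the 4 unigenes with this name summed to 442, 525 and 474, ratios of -0.10 and 0.15. They lay in 3 clusters and differed, with ratios after contact of -0.56 for Unigene12286 and 0.20 for Unigene12329, whose hit had by far the lowest e-value of the 4. Further eIF4G unigenes lay outside the limit in both fungi. The most abundant alone in A. stygium were Unigene11130, with 83.6, 54.7 and 205.9 rescaled FPKM, and Unigene7015, with 128.9, 103.7 and 118.1. No eIF4G sum with such unigenes was made, so its ratios and levels hold for members only. The cap-binding eIF4E had 145, 114 and 161 in T. fuciformis, and 223, 237 and 214 in A. stygium. With the unigenes of that name outside the limit added, a sum chosen after the data were seen that took 3 more in T. fuciformis and 2 in A. stygium, it had 308, 282 and 369.95 in T. fuciformis, and 306, 345 and 305.6 in A. stygium. So the fungus with the higher eIF4E level alone was A. stygium among members and T. fuciformis with these added.

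Several other initiation factors of A. stygium stood at high levels. There eIF1A, which with eIF1 scans for the start codon, had 745, 734 and 734 rescaled FPKM after contact, in dual mycelia and alone, and eIF1 had 834, 705 and 892, ratios of -0.10 and -0.34. Its eIF5A, which relieves ribosomes stalled on proline stretches, had 1588, 1472 and 1450.2, below only elongation factor 1-alpha among the A. stygium proteins described here. The T. fuciformis eIF5A had 327, 243 and 318, ratios of 0.04 and -0.39. The subunit-joining eIF5B had 101, 87.5 and 100.1 in T. fuciformis, and 145, 138 and 153 in A. stygium.

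The anti-association factor eIF6, which keeps the ribosomal subunits apart, had ratios of opposite sign in the dual mycelia of the 2 fungi. In T. fuciformis it had 144, 186 and 143 rescaled FPKM after contact, in dual mycelia and alone, ratios of 0.01 and 0.38. In A. stygium it had 271, 211 and 264, ratios of 0.04 and -0.32. Without rescaling the ratio of the T. fuciformis eIF6 in dual mycelia was -1.15. Mitochondrial IF-2, which starts translation in mitochondria, had 82.8, 47.2 and 59.0 in T. fuciformis, with 6 of 6 contigs above 0 after contact and a summed ratio of 0.48, the highest of the 71 proteins. The A. stygium counterpart had 32.3, 31.6 and 32.7.

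The cytosolic synthetases of T. fuciformis stood below their level alone with 1 exception in each comparison. Their levels ran from 65.8 to 274 rescaled FPKM after contact, from 52.7 to 320.2 in dual mycelia and from 77.8 to 302 alone, over 18 proteins. After contact 1 of the 18 was above 0, the tryptophanyl synthetase at 0.05, and 17 were below, with a median of -0.19, and with scaling to a median ratio of 0 these counts were 2 and 16. In dual mycelia 1 of the 18 was above 0 and 17 were below, with a median of -0.42. The glycyl, histidyl and valyl enzymes were below 0 in both comparisons, at -0.22, -0.24 and -0.12 after contact and at -0.72, -0.60 and -0.51 in dual mycelia.

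The exception was aspartyl-tRNA synthetase. It had 154 rescaled FPKM after contact, 320.2 in dual mycelia and 189.6 alone, ratios of -0.30 and 0.75. In dual mycelia it stood the highest of the synthetases and alone it was well below the prolyl enzyme. Both of its contigs showed this, CL267.Contig3 with 46.0, 32.8 and 55.2 FPKM as deposited and CL267.Contig5 with 54.7, 37.1 and 65.5, and rescaled ratios in dual mycelia of 0.79 and 0.72. The highest value of these contigs in an A. stygium single-fungus library was 0.07 FPKM. As deposited, before rescaling, the sum in dual mycelia was lower than alone, 69.9 against 120.7 FPKM, a ratio of -0.78.

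The seryl, prolyl and lysyl enzymes had the lowest ratios of these synthetases in the T. fuciformis part of the dual mycelia. Seryl-tRNA synthetase had 179, 114 and 206 rescaled FPKM after contact, in dual mycelia and alone, ratios of -0.20 and -0.85. A second contig of its cluster, CL6998.Contig2, lay outside the e-value limit and had 77.4, 61.7 and 118 rescaled FPKM. The prolyl enzyme, the most abundant alone, had 274, 176 and 302, ratios of -0.14 and -0.78. The lysyl enzyme had 213, 163 and 272, ratios of -0.35 and -0.73. After contact the lowest was the beta subunit of phenylalanyl-tRNA synthetase, with 65.8 against 90.5 alone, a ratio of -0.45, while the alpha subunit of the same enzyme had 73.1 against 77.8.

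The cytosolic synthetases of A. stygium divided evenly after contact. Of the 18 proteins 9 were above 0 and 9 below, with a median of 0.01, and with scaling to a median ratio of 0 these counts were 13 and 5. Their levels ran from 60.4 to 402 rescaled FPKM after contact, from 52.6 to 369 in dual mycelia and from 63.8 to 376 alone. Lysyl-tRNA synthetase had the highest ratio after contact, with 178, 163 and 145 after contact, in dual mycelia and alone, ratios of 0.30 and 0.16. The beta subunit of phenylalanyl-tRNA synthetase had the lowest, with 98.6, 83.8 and 115, ratios of -0.23 and -0.46. In dual mycelia 3 were above 0 and 15 below, with a median of -0.13, and the glutamyl enzyme was lowest, at 52.6 against 74.1 alone, a ratio of -0.49. Tyrosyl-tRNA synthetase was the most abundant in all 3 libraries, at 402, 369 and 376.

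**Figure D3:**
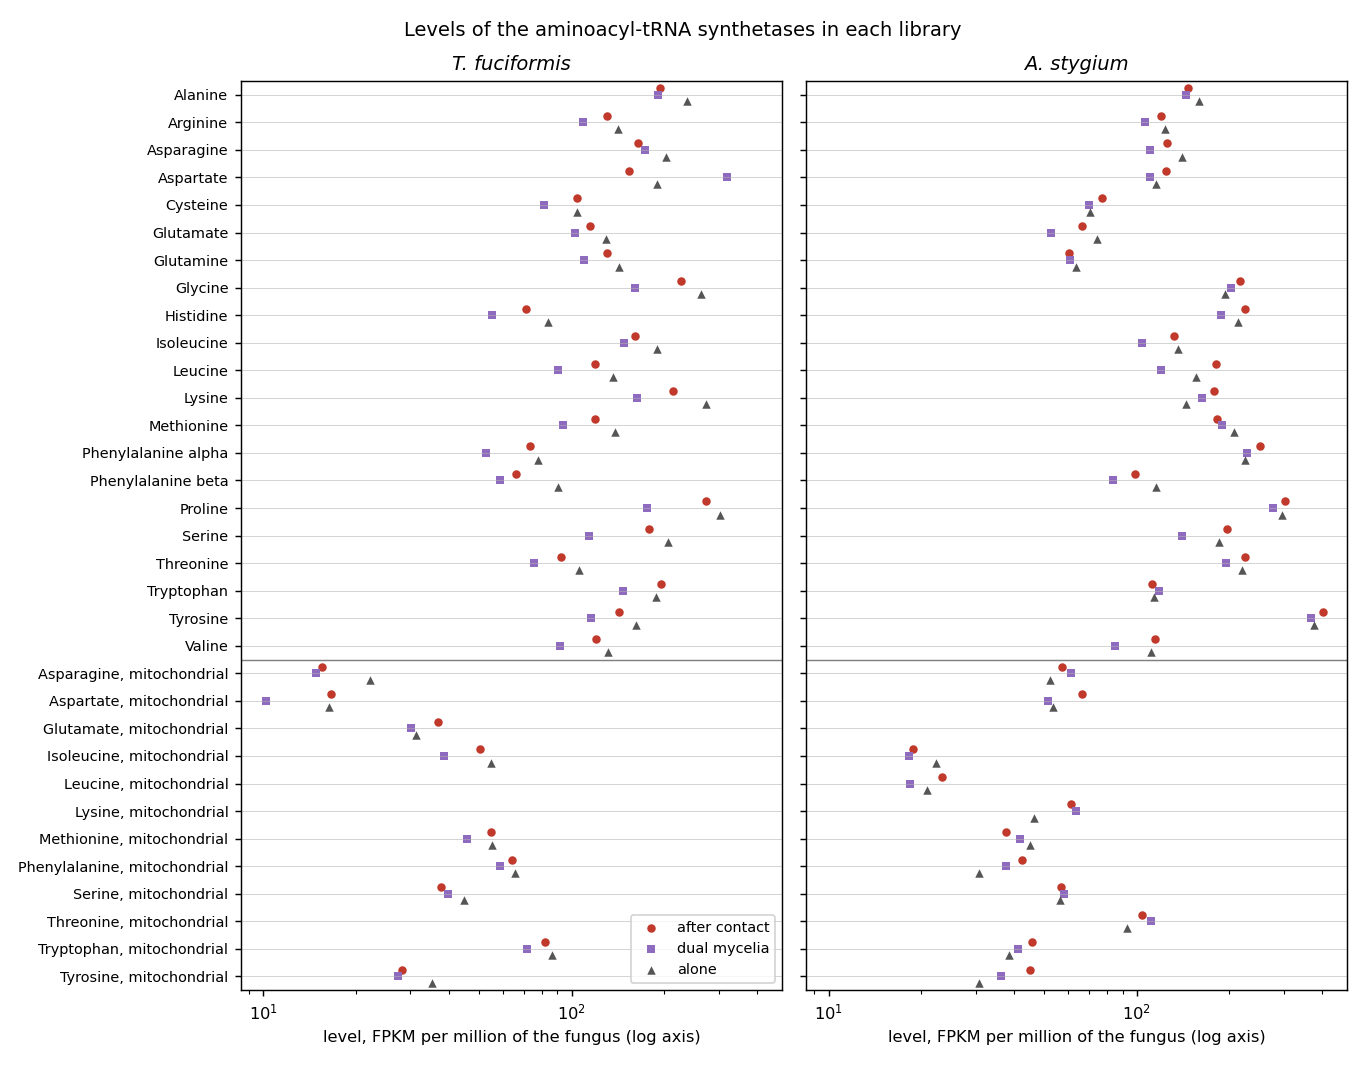
Levels of the aminoacyl-tRNA synthetases by amino acid (x axis, rescaled FPKM on a log scale) in T. fuciformis (left) and A. stygium (right), with 1 point for each library: after contact (red circles), dual mycelia (purple squares) and alone (grey triangles). Enzymes below the line are the mitochondrial ones. The aspartyl enzyme of T. fuciformis has its highest point in dual mycelia, at 320.2 against 189.6 alone.

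Mitochondrial synthetases stood at lower levels than the cytosolic ones. Alone, their median over proteins was 44.8 rescaled FPKM in T. fuciformis and 45.0 in A. stygium, against 152 and 143 for the cytosolic set. In A. stygium after contact 9 of 11 were above 0, with a median of 0.16, led by the tyrosyl enzyme with 44.9 against 30.8 alone, a ratio of 0.53. The phenylalanyl enzyme followed with 42.5 against 30.7, a ratio of 0.46, and the lysyl enzyme with 61.1 against 46.4, a ratio of 0.39. In dual mycelia 7 of the 11 were above 0, with a median of 0.10, though without rescaling 0 were, and the lysyl enzyme was highest at 63.5 rescaled FPKM against 46.4 alone, a ratio of 0.45.

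The mitochondrial synthetases of T. fuciformis were mostly below 0. After contact 2 of 9 were above 0, or 4 of 9 with scaling to a median ratio of 0, with a median of -0.08, from the asparaginyl enzyme at 15.5 against 22.1 alone to the glutamyl enzyme at 36.8 against 31.3. In dual mycelia 0 of 9 were above 0, with a median of -0.27. Their levels were low, between 10.2 and 86.7 rescaled FPKM over the 3 libraries, and the number of reads behind them is unknown.

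Release, rescue and recycling factors ended the set. eRF1, which reads the stop codon, had 179, 163 and 173 rescaled FPKM in T. fuciformis after contact, in dual mycelia and alone, and 315, 245 and 328 in A. stygium. Its GTPase partner eRF3 had 94.9, 92.9 and 113 in T. fuciformis, and 285, 265 and 295 in A. stygium, where the median ratio of both factors after contact was -0.05, or 0.06 with scaling to a median ratio of 0. Hbs1 of A. stygium was the lowest protein of that fungus after contact, with 174, 162 and 233, ratios of -0.42 and -0.52, and all 3 of its contigs were below 0 in both comparisons. Hbs1 of T. fuciformis had 165, 158 and 188. Rli1 had 206, 158 and 219 in T. fuciformis, and 125, 91.7 and 128 in A. stygium, with similar ratios in dual mycelia of -0.47 and -0.47.

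**Figure D4:**
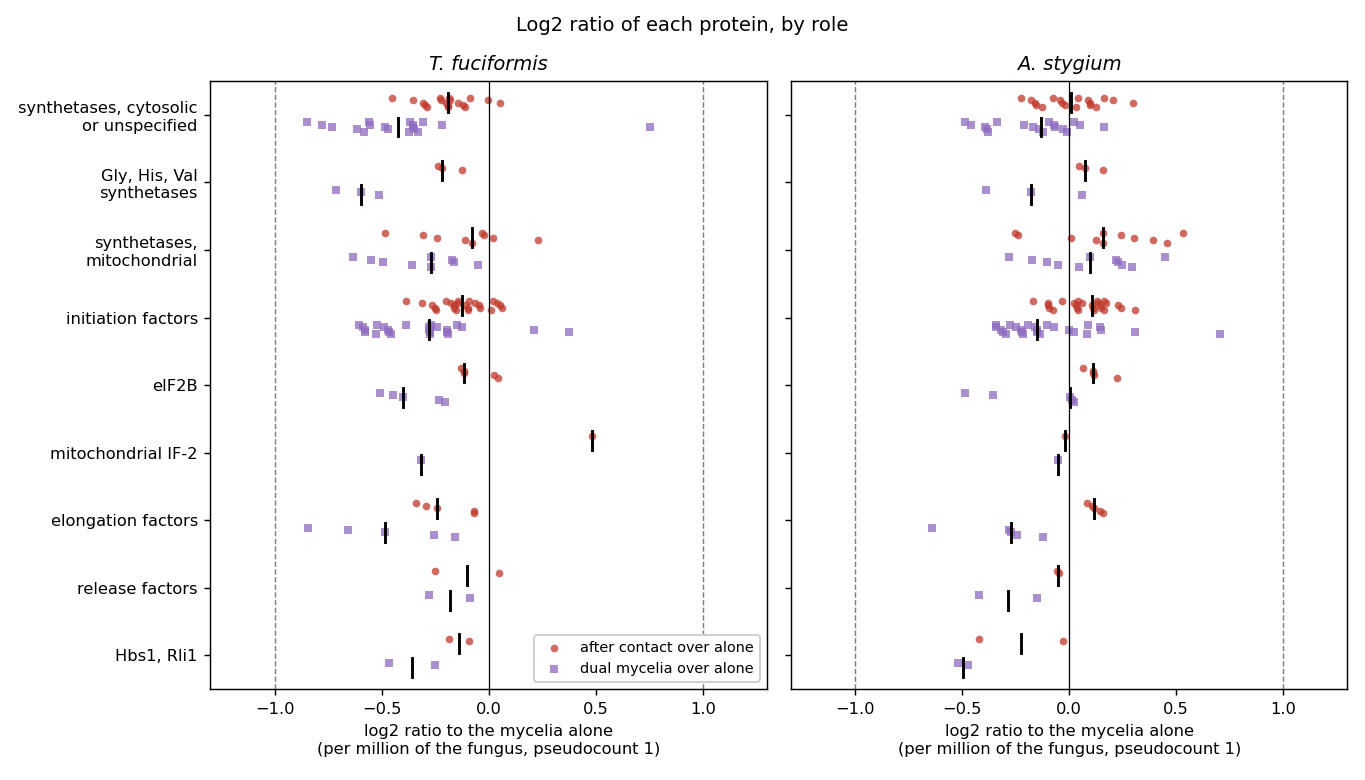
Log2 ratio to the mycelia alone (x axis) of each protein, contigs summed, by role (rows) in T. fuciformis (left) and A. stygium (right), after contact (red circles) and in dual mycelia (purple squares). Black bars are medians over proteins and dashed lines mark 2-fold. No point passes 2-fold, and the elongation factors lie left of 0 in T. fuciformis after contact, at a median of -0.24, and right of 0 in A. stygium, at 0.11.

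Set beside each other, 58 of the 71 proteins of T. fuciformis were below 0 after contact. In A. stygium 51 of the 73 were above 0. Of all T. fuciformis unigenes at 10 FPKM or more, 5003 of 8522 were below 0 after contact. Of all those of A. stygium, 2924 of 7911 were above 0. Over the 68 proteins named in both fungi, 41 were below 0 in T. fuciformis and above 0 in A. stygium, 5 the other way, 16 below 0 in both and 6 above 0 in both. With scaling to a median ratio of 0, as defined above, 50 of the 71 were below 0 and 64 of the 73 above. The ratios of the 68 proteins in the 2 fungi showed no relation after contact (Spearman's rho -0.01 across proteins, which are not independent). In dual mycelia 46 of the 68 were below 0 in both fungi, 19 were below 0 in T. fuciformis only, 2 in A. stygium only, and 1 was above 0 in both. Of all T. fuciformis unigenes at 10 FPKM or more, 5528 of 8182 were below 0 in dual mycelia. Of all those of A. stygium, 4612 of 7809 were. No joint count over both fungi was made for all unigenes. The counts in dual mycelia rest on 1 library that holds both fungi.

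Alone, the levels of the 68 proteins followed a similar order in both fungi (Spearman's rho 0.72 and Pearson's r 0.83 of log2 levels, across proteins, each from 1 library). A. stygium stood higher for 37 of them, and over 2-fold higher for 11. The largest gap was eIF5A, with 1450.2 rescaled FPKM in A. stygium alone and 318 in T. fuciformis alone, 4.55-fold higher in A. stygium. Elongation factor 1-gamma followed, at 1222 in A. stygium and 333 in T. fuciformis, 3.67-fold higher. The mitochondrial aspartyl enzyme was 3.27-fold higher, the alpha subunit of phenylalanyl-tRNA synthetase 2.88-fold, eIF4G 2.84-fold and eRF3 2.61-fold. T. fuciformis stood over 2-fold higher for 5, and these were the mitochondrial isoleucyl, tryptophanyl and phenylalanyl enzymes, the glutaminyl enzyme and eIF2A, an alternative initiator tRNA carrier, which had 114 in A. stygium alone and 243 in T. fuciformis alone. A further A. stygium unigene named eIF2A, Unigene14260, lay outside the e-value limit and had 129.9 rescaled FPKM alone. These levels depend on how completely each protein was assembled in each fungus, on the unigenes the e-value limit kept and on the different ages of the cultures, which were not matched.

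**Figure D5:**
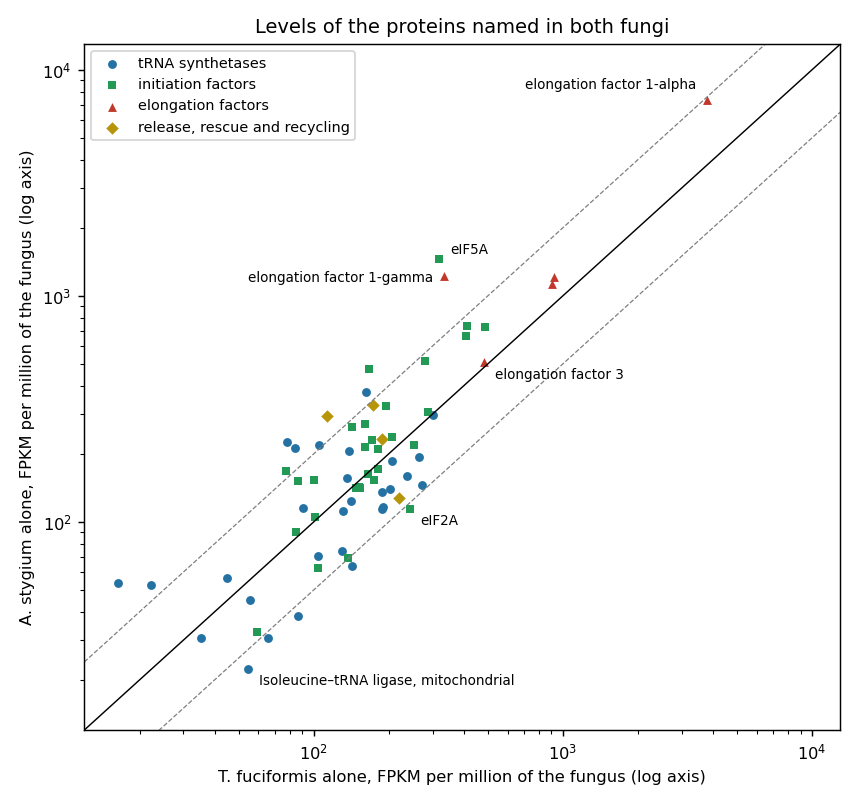
Levels alone of the 68 proteins named in both fungi, T. fuciformis (x axis) against A. stygium (y axis), in rescaled FPKM on log scales, with colours and shapes for roles. The solid line marks equal levels and the dashed lines 2-fold. eIF5A and elongation factor 1-gamma lie farthest above the line among the abundant proteins, and mitochondrial isoleucyl-tRNA synthetase lies farthest below it.

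Other genes of translation gave context for these values. The cytosolic ribosomal proteins, which are not members, had 1 of 70 unigenes above 0 and 69 below in T. fuciformis after contact, with a median log2 ratio of -0.36, and 0 called in either direction. In dual mycelia they had 1 above 0 and 69 below, with a median of -0.62, with 0 called higher and 1 lower. In A. stygium after contact 80 of 85 were above 0, with a median of 0.27, and 0 called, and in dual mycelia 17 were above 0 and 68 below, with a median of -0.14, and 0 called. Scaled to a median ratio of 0, these medians were -0.29, -0.47, 0.39 and -0.09.

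The cap-dependent helicases, a list added after the table had been read, had 0 unigenes called in any of the 4 comparisons. In the A. stygium part of the dual mycelia its 3 unigenes ran from -0.54 to 0.99, the latter just short of 2-fold, with 1 above 0 and 2 below. The eIF4A helicase had 175 FPKM after contact, 49.8 in dual mycelia and 226 alone in T. fuciformis as deposited, rescaled log2 ratios of -0.41 and -0.64. In A. stygium it had 364, 196 and 308, ratios of 0.18 and -0.10. Cytoplasmic poly(A)-binding protein, which joins the mRNA ends, had 345, 91.95 and 414 FPKM in T. fuciformis (Unigene9775), ratios of -0.30 and -0.63, and 119.5, 45.8 and 111.6 in A. stygium (Unigene7826), ratios of 0.04 and -0.73. In its list, with the decapping factors, 1 of 7 was 2-fold higher in T. fuciformis in both comparisons, Unigene17975 below 2 FPKM, against 10.4% of all unigenes after contact and 12.6% in dual mycelia, and 0 of 7 in A. stygium.

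Among the genes that read amino acid supply, the A. stygium cross-pathway control protein 1 (Unigene9597), the counterpart of yeast Gcn4 that switches on amino acid and synthetase genes, had 320 FPKM after contact, 355 in dual mycelia and 315 alone as deposited. Its rescaled log2 ratios were -0.03 and 0.73, within 2-fold. The kinase GCN2, which senses uncharged tRNA, had 10.3, 9.72 and 12.25 FPKM in A. stygium, ratios of -0.29 and 0.21, and 23.7, 6.23 and 23.8 in T. fuciformis, ratios of -0.04 and -0.38. In A. stygium 1 of 6 unigenes of this list was 2-fold higher after contact and 1 of the 5 tested 2-fold lower in dual mycelia, both GCN20 contigs below 10 FPKM and beside 9.89% and 14.8% of all unigenes, and in T. fuciformis 0 of 2 were called.

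Enzymes that modify elongation factor 2 and eIF5A, for diphthamide and deoxyhypusine synthesis, had few calls in either fungus. In the T. fuciformis part of the dual mycelia 2 of 12 unigenes were 2-fold higher, near the 12.6% of all its unigenes, and 0 lower, where 13.2% were. The 2 called were diphthamide biosynthesis protein 2 (CL1026.Contig2), with 39.2 FPKM in dual mycelia and 46.8 alone, a rescaled ratio of 1.27, and diphthamide biosynthesis protein 3 (Unigene1814), with 13.98 and 18.96 FPKM, a ratio of 1.08. Both were below their level alone as deposited, so these calls rest on the rescaling. After contact their ratios were -0.55 and 0.64, and 0 of the 12 were higher and 1 lower, against 10.4% and 5.26% of all unigenes. In A. stygium 0 of 10 were higher and 1 lower after contact, against 9.89% and 11.3%, and 0 were called in dual mycelia. The tRNA modification and processing genes had 1 of 64 higher and 2 lower in T. fuciformis after contact, beside those same background shares, and 2 of 58 higher and 2 lower in A. stygium. In dual mycelia they had 7 of 64 higher and 2 lower in T. fuciformis, against 12.6% and 13.2% of all unigenes, and 3 of 56 higher and 5 lower in A. stygium, against 11.9% and 14.8%.

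Mitochondrial elongation and recycling factors had 3 of 6 unigenes 2-fold lower in A. stygium after contact, where 11.3% of all unigenes were, and 2 of 6 in dual mycelia, where 14.8% were. A pair of these were the contigs of ribosome-releasing factor 2, with 41.6 and 41.3 FPKM after contact, 15.9 and 15.6 in dual mycelia and 86.2 and 91.8 alone, ratios of -1.10 and -1.20 after contact and of -1.87 and -1.98 in dual mycelia. This pair shares 1 protein name, so these counts of unigenes are not counts of independent calls. The remaining unigene called after contact had the lowest ratio of the list there, at -1.62. Mitochondrial elongation factor Tu of A. stygium had 201, 113 and 165 FPKM, ratios of 0.23 and 0.01. In T. fuciformis 1 of 8 was 2-fold lower in each comparison, against 5.26% of all unigenes after contact and 13.2% in dual mycelia, an elongation factor G unigene below 2 FPKM. Of the remaining lists, methionine aminopeptidases and Dom34, the partner of Hbs1, had 0 unigenes called in any of the 4 comparisons.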

How the data were processed

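RNA of mycelia was sequenced in 5 libraries, 1 per group, grouped by source name. The authors deposited 1 table of de novo unigenes with an FPKM value per unigene and library and, per the file headers, hits in Nr, SwissProt, KOG and other databases. Which assembler, aligner and counter were used is not stated in the labels or headers. Neither read counts nor unigene lengths were used, so depth is unknown and no interval can be given.

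Unigenes went to a fungus by their maximum over its 2 libraries without the partner, which had to reach 1 FPKM and exceed the partner's maximum at least 10 times. Values of the dual mycelia were not used for it. FPKM was then rescaled so that each fungus summed to 1e+06 per library. Ratios used a pseudocount of 1, which understates changes of low unigenes, over unigenes of at least 1 FPKM in 1 of the 2 libraries. A call is a 2-fold difference. Rescaled contigs of 1 protein name were summed before the ratio was taken.

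With 1 library per group no test was made. The named-gene rule took, per fungus, the most abundant member of each role and amino acid, all subunits of the main factors, and, among members of at least 10 FPKM, those past 2-fold and the 5 highest and 5 lowest ratios. The text leaves out some of these. Genes named from the other translation lists, GCN20 included, and the contigs of clusters were chosen after their values were seen. Members, lists and rules were chosen with earlier results of these data known. Alternatives were another pseudocount (0.1), filters of 10 FPKM and of none, cluster sums, no rescaling, scaling to a median ratio of 0, assignment on the libraries grown alone or at a 100-fold ratio, and an e-value limit of 1e-50. Scaling to a median ratio of 0 used unigenes of the fungus with at least 10 FPKM in both libraries. The ratio code was tested on simulated data. The table held 0 further columns of per-library values. Python 3.11.15, pandas 2.3.3, numpy 2.4.6 and matplotlib 3.10.9 were used.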

Additional observations from a re-analysis of the deposited data

Results flagged for a closer look

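Medians of the log2 ratio to the mycelia alone are given here where they lay on opposite sides of 0 in the 2 fungi, for roles with at least 5 unigenes tested in both. With 1 library a group none of these differences was tested, and each median runs over unigenes that share clusters and libraries.

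After contact the median over all members was -0.13 in T. fuciformis (98 unigenes) and 0.08 in A. stygium (104). Cytosolic or unspecified synthetases had -0.19 in T. fuciformis and 0.04 in A. stygium. Mitochondrial synthetases had -0.052 in T. fuciformis and 0.20 in A. stygium. Cytosolic initiation factors had -0.11 in T. fuciformis and 0.07 in A. stygium. The eIF2B subunits had -0.11 in T. fuciformis and 0.11 in A. stygium, and elongation factors had -0.29 in T. fuciformis and 0.11 in A. stygium. With scaling to a median ratio of 0 over unigenes of at least 10 FPKM in both libraries, the mitochondrial synthetases of T. fuciformis had 0.01. Those of A. stygium had 0.31, on the same side of 0. The other 4 roles and the members as a whole kept opposite signs. That scaling left the median over all T. fuciformis unigenes after contact at 0.06.

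In dual mycelia the mitochondrial synthetases had a median of -0.27 in T. fuciformis (18 unigenes) and 0.19 in A. stygium (14). Scaled to a median ratio of 0, these were -0.14 and 0.24. Without rescaling, the A. stygium value was -0.34, below 0 like that of T. fuciformis.

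Below that size, the glycyl, histidyl and valyl synthetases had medians after contact of -0.22 in T. fuciformis (3 unigenes) and 0.12 in A. stygium (4). Mitochondrial IF-2 had the opposite order of signs, 0.43 in T. fuciformis (6 unigenes of 1 cluster) and -0.02 in A. stygium (1), or 0.10 in A. stygium with scaling to a median ratio of 0. In dual mycelia the rows of other function had -0.21 in T. fuciformis (1 unigene) and 0.08 in A. stygium (1), which are different proteins.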

How the results depend on the processing

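Of 128 recomputed counts, medians and sums over the members, 107 stayed within 1.5 times (counts), 0.1 (medians, log2) or 1.1-fold (sums) of the reported value, 21 moved past these limits and 0 changed sign. Without rescaling, the T. fuciformis part of the dual mycelia gave 95 members 2-fold lower in place of 4, a median of -1.79 and a summed level of 0.258 times that alone in place of 0.752. There the A. stygium part gave 15 lower in place of 6, a median of -0.66 and a sum of 0.611 times in place of 0.896. The median of all unigenes was then -1.42 in T. fuciformis and -0.55 in A. stygium, against -0.17 and -0.10 with rescaling, and the split of the library between the fungi enters these values directly. Also without rescaling, the ratios in dual mycelia of the T. fuciformis aspartyl-tRNA synthetase, eIF5 and eIF6 turned to -0.78, -1.32 and -1.15.

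Scaling to a median ratio of 0 gave a median of -0.21 and a sum of 0.836 times in the T. fuciformis part of the dual mycelia, and a median of 0.20 in A. stygium after contact. The medians over all unigenes in these comparisons were then -0.03 and -0.02. In T. fuciformis after contact this scaling moved the median of the members from -0.13 to -0.06, beside 0.06 over all unigenes. At 10 FPKM or more, fewer members being tested, 2 were lower in T. fuciformis in dual mycelia, 0 higher and 0 lower in A. stygium after contact, and 0 higher and 1 lower in A. stygium in dual mycelia. Cluster sums gave 0 lower in T. fuciformis in dual mycelia, 0 and 0 in A. stygium after contact, and 0 higher and 1 lower in A. stygium in dual mycelia. Assigning unigenes from the 2 libraries of fungi grown alone, so that those near 0 there drop out, gave 1 higher in A. stygium after contact and 1 in dual mycelia. The summed level takes no pseudocount, filter or cluster step, so it has no value under these.

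No paired analysis was possible because each group holds 1 library. For the same reason leaving out a replicate was not possible. The number of reads behind each FPKM is unknown, which limits low members most, mitochondrial synthetases among them. Names come from the nearest hit.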

Other observations

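The 12 members found in the libraries of both fungi lay between 0 and 4.84 FPKM. They summed to 17.0 FPKM in T. fuciformis after contact, 12.9 in A. stygium after contact, 14.9 in dual mycelia, 13.5 in T. fuciformis alone and 16.55 in A. stygium alone. All 10 with a named genus had their nearest Nr hit in Cryptococcus or Trichosporon, both Tremellomycetes. They hold elongation factors 2 and 3, subunits of eIF3, eIF2 alpha, eIF1A and eIF5A, with Unigene178, an eIF5A, the highest. Their source was not tested.

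Cluster CL1692 joins the elongation factor 2 contigs of both fungi, CL1692.Contig2 of T. fuciformis and CL1692.Contig3 of A. stygium, with a shared contig of at most 1.68 FPKM, and only contigs of 1 fungus were summed.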
